A study of Arabidopsis thaliana with 8 samples.

Results

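The genes described here are 8 Arabidopsis genes for wall proteins of the root hair, out of 26547 genes with any read in the series. They are the extensins EXT6 (AT2G24980) and EXT13 (AT5G35190), the extensin-like genes AT1G26240 and AT1G26250, the proline-rich proteins PRP1 (AT1G54970) and PRP3 (AT3G62680), the leucine-rich repeat extensin LRX1 (AT1G12040) and the COBRA-like protein COBL9 (AT5G49270). They were picked by locus identifier with their values in the plate libraries already known. Their levels on plates and with salt are therefore given as a description, with no test. All 8 had reads, and all 8 reached 5 counts per 1e6 reads (CPM, TMM-scaled here) in both genotypes on plates without salt.

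A root hair is a tube that a single epidermal cell of the root sends out, and it grows at its tip by laying down new wall there. Extensins are wall glycoproteins built of a serine followed by a run of prolines, which the cell hydroxylates and decorates with sugars, and of tyrosines that peroxidases can cross-link into a network. Proline-rich proteins share this secreted repeat style, LRX1 joins an extensin part to leucine-rich repeats, and COBL9 is a membrane-anchored protein of the COBRA family needed for hair growth. The basic helix-loop-helix factors RHD6, RSL2 and RSL4 switch on hair growth, and genes expressed in hairs often carry a short promoter motif called the root hair element (RHE), which RSL4 can bind.

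RNA came from 2-week-old plants labelled as leaf material and grown in long days, in 2 genotypes and 4 conditions, with 1 library each. The mutant, lsm8-1, carries a mutation of LSM8 in the Col-0 background, and the wild type was Col-0. LSM8 is the subunit particular to the nuclear LSM ring, which binds the U6 RNA used in splicing. On plates, lsm8-1 and Col-0 plants had been moved from 0.5X GM medium to plates with 150 mM NaCl for 10 h, or were sampled on GM, lit at 90 µmol m-2 s-1 throughout. In soil, lsm8-1 and Col-0 plants had spent 24 h at 4 °C, lit at 40 in the same unit, or were sampled at 20 °C, lit at 90. Whether a library pooled several plants is not stated. With 1 library per group there is no spread between replicates, so ratios of 2 libraries carry only exact Clopper-Pearson 95% intervals from their counts, which cover counting error alone.

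The plate libraries held 33.4 M to 34.0 M counted reads and the soil libraries 44.2 M to 45.9 M (M, 1e6 reads). LSM8 (AT1G65700) was lower in lsm8-1 than in Col-0 in all 4 conditions, with ratios of 0.150 with NaCl, 0.207 on GM, 0.438 at 4 °C and 0.322 at 20 °C. Against the leaf label, 14 to 17 of 25 root markers other than those of hairs reached 5 CPM in each plate library, and 7 or 8 of 25 in each soil library. Their summed level was 2037 CPM in lsm8-1 and 2579 CPM in Col-0 with NaCl, 4647 CPM in lsm8-1 and 6832 CPM in Col-0 on GM, and 334 to 1256 CPM in soil. All 13 leaf markers reached 5 CPM in all 8 libraries, with summed levels of 17454 CPM (lsm8-1) and 11430 CPM (Col-0) with NaCl and 30648 CPM (lsm8-1) and 21372 CPM (Col-0) on GM. Pollen, another source of tip-growth wall genes, was checked with 8 markers, of which PPME1 had no read and VGD1 none on plates. The pollen markers summed to 46.3 CPM in lsm8-1 and 21.0 CPM in Col-0 with NaCl, and to 31.4 CPM in lsm8-1 and 20.2 CPM in Col-0 on GM, with 2 or 3 of 8 at 5 CPM in each plate library. In such bulk RNA, fewer hair cells and less RNA per hair cell cannot be told apart.

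The sequences are shown first, as a description of the 8 genes. Whether promoter letters go with levels was not tested. The 250 bases before the annotated transcript start are from the RefSeq assembly TAIR10.1, which holds all 8 genes. The letters searched were those at the core of the root hair element, CACG with G or T before it and A or T after it, on both strands, and the whole element by its name (RHE), which contains them. The 6-letter core was present in 6 of the 8 promoters (75.0%), against 4919 of 27443 promoters of protein-coding genes (17.9%). The whole element was found in PRP1, PRP3 and LRX1, 3 of 8 (37.5%), against 207 of 27443 (0.754%). CACGTG, the G-box, was found in 0 of 8 against 6.49% of all promoters. A match is a description of letters and not a shown binding site. The element is known from genes expressed in hairs, and the 8 were taken as such genes. Nothing is therefore read from its share, or that of its core, in the 8 or in the lists. Capitals mark the core in the first 5 promoters printed here, and in PRP1, PRP3 and LRX1 the core lies on the strand opposite to the gene, so its reverse complement is in capitals. They lie at chr2:10622146-10622395, plus strand (EXT6), chr5:13433901-13434150, plus strand (EXT13), chr1:20504651-20504900, plus strand (PRP1), chr3:23182472-23182721, plus strand (PRP3) and chr1:4069742-4069991, plus strand (LRX1).
EXT6: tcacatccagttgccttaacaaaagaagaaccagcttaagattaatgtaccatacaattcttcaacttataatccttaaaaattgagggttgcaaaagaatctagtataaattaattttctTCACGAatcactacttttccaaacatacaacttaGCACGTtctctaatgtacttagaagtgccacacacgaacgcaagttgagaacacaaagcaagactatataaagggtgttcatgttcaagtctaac
EXT13: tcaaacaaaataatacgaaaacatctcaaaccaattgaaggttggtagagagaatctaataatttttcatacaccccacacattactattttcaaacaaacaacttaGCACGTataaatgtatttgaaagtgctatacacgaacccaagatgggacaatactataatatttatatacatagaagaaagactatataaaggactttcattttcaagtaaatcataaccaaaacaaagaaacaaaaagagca
PRP1: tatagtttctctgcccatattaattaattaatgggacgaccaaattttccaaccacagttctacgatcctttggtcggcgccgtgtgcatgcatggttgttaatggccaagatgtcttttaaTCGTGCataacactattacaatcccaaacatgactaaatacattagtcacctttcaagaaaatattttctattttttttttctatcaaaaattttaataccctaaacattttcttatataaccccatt
PRP3: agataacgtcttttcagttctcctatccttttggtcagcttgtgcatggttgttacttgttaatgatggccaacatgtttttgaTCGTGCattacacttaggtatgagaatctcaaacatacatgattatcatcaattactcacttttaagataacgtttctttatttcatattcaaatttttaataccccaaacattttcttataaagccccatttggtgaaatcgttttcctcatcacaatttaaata
LRX1: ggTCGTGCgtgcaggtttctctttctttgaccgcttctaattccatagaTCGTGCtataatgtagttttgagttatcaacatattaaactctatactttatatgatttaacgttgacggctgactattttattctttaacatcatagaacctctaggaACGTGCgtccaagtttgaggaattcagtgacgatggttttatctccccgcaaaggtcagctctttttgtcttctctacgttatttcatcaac
In EXT6 the core begins 129 and 95 bases before the start, in EXT13 143, in PRP1 128, in PRP3 166, and in LRX1 248, 201 and 92. COBL9 holds 3 cores, beginning 50, 41 and 13 bases before its start. EXT6 and EXT13 also share the 15 bases aagactatataaagg, which include a TATA-like stretch, and PRP1 and PRP3 share the 15 bases aaacattttcttata.

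AT1G26240 and AT1G26250, neighbours on chromosome 1 that point away from each other, are the 2 without a core. TAIR10.1 annotates a gene on the opposite strand, AT1G26255, over 1609 bases of AT1G26250, and since it is not stated whether reads were counted by strand, reads of the pair cannot be told apart. None of the other 7 genes overlaps an annotated gene. Capitals mark here the 14 bases that their promoters share. The windows are chr1:9079647-9079896, minus strand (AT1G26240) and chr1:9083588-9083837, plus strand (AT1G26250).
AT1G26240: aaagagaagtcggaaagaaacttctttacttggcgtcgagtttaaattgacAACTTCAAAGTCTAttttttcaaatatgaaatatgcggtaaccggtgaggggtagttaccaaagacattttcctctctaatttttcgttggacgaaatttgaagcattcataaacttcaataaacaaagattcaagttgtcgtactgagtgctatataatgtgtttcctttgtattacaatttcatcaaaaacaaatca
AT1G26250: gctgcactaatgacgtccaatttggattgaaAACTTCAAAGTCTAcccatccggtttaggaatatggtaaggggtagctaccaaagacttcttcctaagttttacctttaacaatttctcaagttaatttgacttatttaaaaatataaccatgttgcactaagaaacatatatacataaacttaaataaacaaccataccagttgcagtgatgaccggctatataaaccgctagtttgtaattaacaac
Among the other 25 pairs of the 8 promoters, the longest shared run was 7 to 11 bases. The core was found in 10 of 12 promoters of other extensins (83.3%, not in EXT3 and EXT4, and with EXT11 not matched), in 8 of 21 of root hair specific wall and secreted proteins (38.1%) and in 3 of 25 of root markers other than hair (12.0%).

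**Figure D1:**
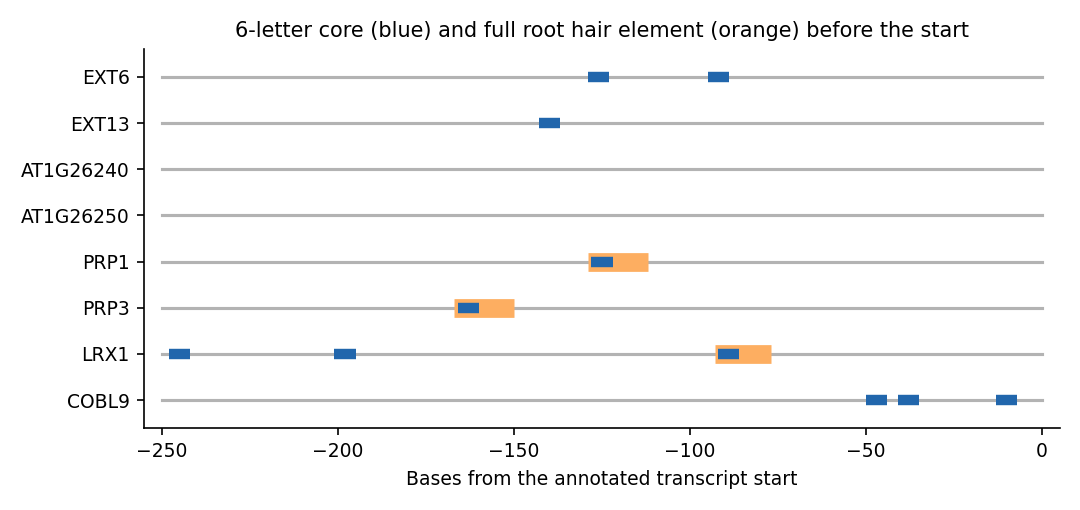
Position of the 6-letter core (blue) and of the whole root hair element (orange) in the 250 bases before the annotated start of each of the 8 genes, on an axis of bases from the start. Blue marks lie on 6 of the 8 lines, orange marks on those of PRP1, PRP3 and LRX1, and the lines of AT1G26240 and AT1G26250 are empty.

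The coding sequences show what the extensins are made of. A serine codon followed by 4 proline codons occurs 37 times in the 559 codons of EXT6, 14 times in the 328 of EXT13, 41 times in the 478 of AT1G26240 and 28 times in the 443 of AT1G26250. LRX1 has 24 such runs in 744 codons, PRP1 and PRP3 have 1 each in 335 and 313, and COBL9 has 0 in 663. Proline made up 46.0% of the codons of AT1G26240 and 9.20% of those of COBL9. A 75-base stretch each of EXT6 (coding bases 181 to 255) and AT1G26250 (coding bases 205 to 279) shows the repeat, with each serine and 4 prolines in capitals.
EXT6: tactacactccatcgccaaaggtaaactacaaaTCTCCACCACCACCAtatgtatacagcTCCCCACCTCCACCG
AT1G26250: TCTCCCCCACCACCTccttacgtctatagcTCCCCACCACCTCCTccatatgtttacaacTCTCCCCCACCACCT
Such repeats also bear on counting, since the tables count uniquely placed reads. Of the 50-base stretches of the coding sequence, 45.7% in EXT6 and 37.2% in AT1G26240 occur again in the genome, against 6.82% in EXT13, 2.96% in AT1G26250, 2.01% in LRX1 and 0 in PRP1, PRP3 and COBL9. Levels of EXT6 and AT1G26240 relative to other genes are uncertain for this reason. Ratios of the same gene between libraries share the same countable length. On GM, 96.9% to 99.9% of the length of each gene was covered by reads in both genotypes, per the deposited coverage.

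Of the 8 genes, all but AT1G26240 and AT1G26250 stood 4.48-fold to 21.5-fold higher in salt-treated lsm8-1 plants than in salt-treated Col-0 plants. In Col-0 all 8 were more than 2-fold lower with NaCl than on GM, while in lsm8-1 3 were, and with NaCl 6 of the 7 genes that reached 5 CPM were more than 2-fold higher in lsm8-1 than in Col-0. The summed level of the 8 was 115 CPM in lsm8-1 with NaCl and 13.8 CPM in Col-0 with NaCl, against 267 CPM in lsm8-1 and 378 CPM in Col-0 on GM. AT1G26250 alone made up 32.5% of the sum in lsm8-1 on GM and 66.0% in Col-0 on GM. Without it and its neighbour AT1G26240 the sums were 110 CPM (lsm8-1) and 9.77 CPM (Col-0) with NaCl, and 174 CPM (lsm8-1) and 113 CPM (Col-0) on GM.

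The extensins EXT6 and EXT13 had the highest ratios of lsm8-1 to Col-0 under salt among the 8, with intervals that overlap that of PRP1. The interval of EXT6 also overlaps that of PRP3, and that of EXT13 begins at 15.9, where that of PRP3 ends. EXT6 had 1341 reads (32.3 CPM) in lsm8-1 with NaCl and 1836 (46.7 CPM) in lsm8-1 on GM, against 88 (1.97 CPM) in Col-0 with NaCl and 987 (23.0 CPM) in Col-0 on GM. The Col-0 library with NaCl is the low one of the 4. The ratio of NaCl to GM was 0.692 (0.644 to 0.743, exact Clopper-Pearson 95% interval, as for all ratios that follow) in lsm8-1 and 0.0856 (0.0680 to 0.107), or 11.7-fold lower, in Col-0. With NaCl, lsm8-1 stood 16.4-fold above Col-0 (13.2 to 20.6), and on GM 2.03-fold (1.88 to 2.20).

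EXT13 had 878 reads (21.2 CPM) in lsm8-1 with NaCl and 1904 (48.4 CPM) in lsm8-1 on GM, against 44 (0.984 CPM) in Col-0 with NaCl and 1254 (29.2 CPM) in Col-0 on GM. Salt-treated lsm8-1 lay below both GM libraries, and salt-treated Col-0 far below all 3 others. The ratio of NaCl to GM was 0.437 (0.403 to 0.473), or 2.29-fold lower, in lsm8-1 and 0.0337 (0.0244 to 0.0455), or 29.7-fold lower, in Col-0. The level in lsm8-1 was 21.5-fold that in Col-0 with NaCl (15.9 to 29.8) and 1.66-fold on GM (1.54 to 1.78).

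AT1G26250 and AT1G26240 behaved unlike the other 6, since salt left them low in both genotypes and lsm8-1 had less of them than Col-0 on GM. AT1G26250 had 212 reads (5.11 CPM) in lsm8-1 with NaCl and 3417 (86.9 CPM) in lsm8-1 on GM, against 176 (3.94 CPM) in Col-0 with NaCl and 10720 (250 CPM) in Col-0 on GM. It was the most abundant of the 8 per length on GM in both genotypes. NaCl relative to GM was 0.0588 (0.0509 to 0.0675), or 17.0-fold lower, in lsm8-1 and 0.0158 (0.0135 to 0.0183), or 63.4-fold lower, in Col-0. Between genotypes, lsm8-1 over Col-0 was 1.30 with NaCl (1.06 to 1.59) and 0.348 on GM (0.335 to 0.362).

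AT1G26240, its neighbour with the same repeats, had 13 reads (0.313 CPM) in lsm8-1 with NaCl and 266 (6.77 CPM) in lsm8-1 on GM, against 6 (0.134 CPM) in Col-0 with NaCl and 645 (15.0 CPM) in Col-0 on GM. Both salt libraries were low in it, and reads covered 55.11% of its length in lsm8-1 and 20.6% in Col-0. NaCl relative to GM was 0.0463 (0.0243 to 0.0805), or 21.6-fold lower, in lsm8-1 and 0.00893 (0.00327 to 0.0196), or 112-fold lower, in Col-0. Between genotypes, lsm8-1 over Col-0 was 2.33 with NaCl, where both levels were under 5 CPM and the interval of 0.828 to 7.49 includes equality. On GM it was 0.450 (0.389 to 0.520).

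The proline-rich protein genes PRP1 and PRP3 kept most or all of their level in lsm8-1 under salt. PRP1 had 460 reads (11.1 CPM) in lsm8-1 with NaCl and 401 (10.2 CPM) in lsm8-1 on GM, against 35 (0.783 CPM) in Col-0 with NaCl and 264 (6.15 CPM) in Col-0 on GM. It is the one gene of the 8 that was not lower with NaCl than on GM in lsm8-1, at a ratio of 1.09 whose interval of 0.948 to 1.25 includes equality. In Col-0 the ratio was 0.127 (0.0868 to 0.182), or 7.85-fold lower. The level in lsm8-1 was 14.2-fold that in Col-0 with NaCl (10.0 to 20.6) and 1.66-fold on GM (1.42 to 1.95).

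PRP3, a wall protein of hair-forming cells, had 951 reads (22.9 CPM) in lsm8-1 with NaCl and 1425 (36.2 CPM) in lsm8-1 on GM, against 82 (1.83 CPM) in Col-0 with NaCl and 1107 (25.8 CPM) in Col-0 on GM. Of the 8, its profile over the 4 plate libraries lay closest to the median profile of the group. NaCl relative to GM was 0.632 (0.582 to 0.687) in lsm8-1 and 0.0711 (0.0561 to 0.0891), or 14.1-fold lower, in Col-0. Between genotypes, lsm8-1 over Col-0 was 12.5 with NaCl (9.96 to 15.9) and 1.41 on GM (1.30 to 1.52).

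LRX1 and COBL9 showed the same pattern at a smaller size. LRX1 had 707 reads (17.0 CPM) in lsm8-1 with NaCl and 970 (24.7 CPM) in lsm8-1 on GM, against 137 (3.06 CPM) in Col-0 with NaCl and 898 (20.9 CPM) in Col-0 on GM. NaCl relative to GM was 0.690 (0.626 to 0.762) in lsm8-1 and 0.147 (0.121 to 0.176), or 6.83-fold lower, in Col-0. On GM the 2 genotypes were close, with lsm8-1 at 1.18-fold Col-0 (1.08 to 1.29), and with NaCl lsm8-1 was at 5.56-fold (4.62 to 6.73). COBL9 had 212 reads (5.11 CPM) in lsm8-1 with NaCl and 292 (7.43 CPM) in lsm8-1 on GM, against 51 (1.14 CPM) in Col-0 with NaCl and 359 (8.36 CPM) in Col-0 on GM. It was the lowest of the 8 per length on GM in both genotypes. NaCl relative to GM was 0.688 (0.574 to 0.824) in lsm8-1 and 0.136 (0.0997 to 0.183), or 7.33-fold lower, in Col-0. Between genotypes, lsm8-1 over Col-0 was 4.48 with NaCl (3.29 to 6.21), and on GM 0.888, with an interval of 0.759 to 1.04 that includes equality.

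**Figure D2:**
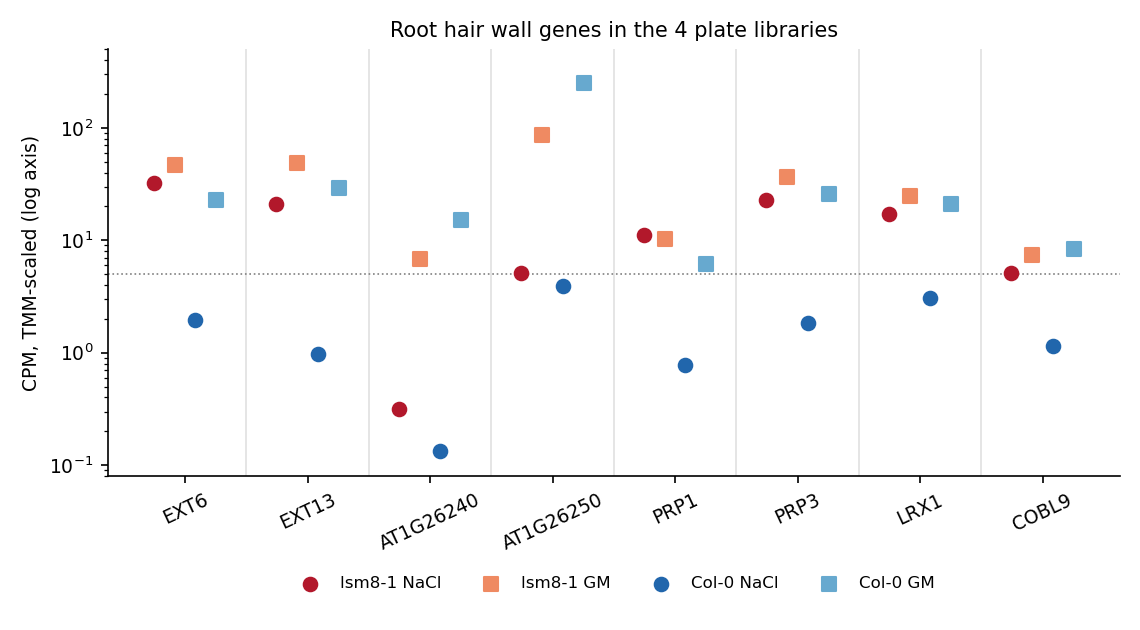
Level of each of the 8 genes in the 4 plate libraries, in TMM-scaled CPM on a log axis, with 1 point per library and no error bar because each group has 1 library. Circles are NaCl and squares GM, red is lsm8-1 and blue Col-0, and the dotted line is 5 CPM. The dark blue circles of salt-treated Col-0 are all below the line, at 0.134 to 3.94 CPM, and the red circles of salt-treated lsm8-1 lie above it except for AT1G26240 at 0.313 CPM.

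Read against all genes, the shares were as follows. A gene was counted when it reached 5 CPM in at least 1 of the libraries compared and its log2 ratio, with a pseudocount of 1 CPM, was at least 1 in size. In lsm8-1, 3 of 8 were lower with NaCl, where 7.09% of 13780 genes were, and 0 of 8 higher, where 10.6% were. In Col-0, 8 of 8 were lower with NaCl, where 8.13% of 13906 genes were, and 0 of 8 higher, where 10.5% were. For lsm8-1 against Col-0, 6 of 7 were higher with NaCl, where 2.68% of 13530 genes were, and 0 of 7 lower, where 1.49% were. On GM, 0 of 8 were higher, where 1.56% of 13230 genes were, and 2 of 8 lower, where 1.61% were. Since the 8 were chosen on such values, nothing is read from these shares. The median log2 ratios of the 8 were -0.58 (NaCl against GM in lsm8-1), -3.13 (NaCl against GM in Col-0), 2.76 (lsm8-1 against Col-0 with NaCl, 7 genes) and 0.35 (lsm8-1 against Col-0 on GM), where the medians of all genes were -0.01, 0.00, -0.01 and 0.00 in that order. Just inside the limit was AT1G26240 on GM, at -1.04 for lsm8-1 against Col-0 (-0.77 with a pseudocount of 5 CPM), then EXT13 in lsm8-1, at -1.16 for NaCl against GM, and just outside it was EXT6 on GM, at 0.99 for lsm8-1 against Col-0.

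The response itself, the log2 ratio of NaCl to GM, was less negative in lsm8-1 than in Col-0 for all 8. The difference, lsm8-1 minus Col-0, was 2.50 for EXT6, 2.77 for EXT13, 2.60 for PRP3, 2.11 for PRP1, 1.92 for LRX1 and 1.66 for COBL9, and 1.82 and 1.26 for AT1G26250 and AT1G26240. Its median was 2.02, against -0.01 over all 14399 genes, of which 2.67% had a difference of 1 or more, as 8 of 8 here did, and 1.24% one of -1 or less, as 0 of 8 did. With 1 library in each of the 4 groups the difference has no test.

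**Figure D3:**
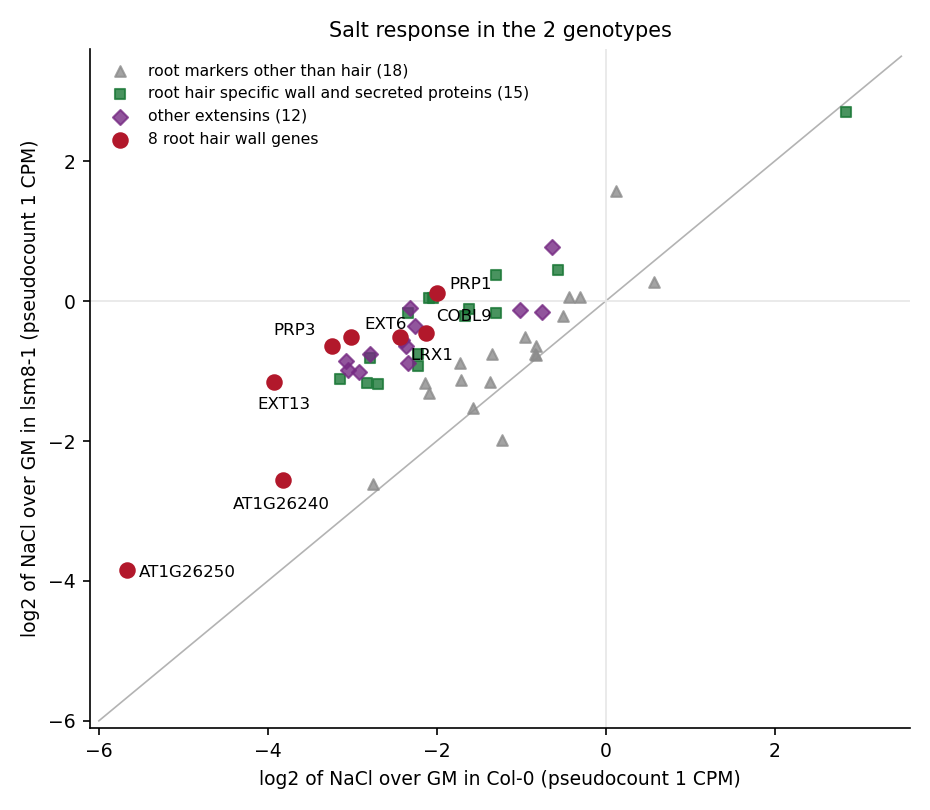
Log2 ratio of NaCl to GM (pseudocount 1 CPM) in lsm8-1, up the page, against Col-0, across it, with 1 point per gene at 5 CPM or more on plates. The line marks equal response, and the 8 genes (red) lie above it, with 6 of them between -1.16 and 0.11 in lsm8-1 and between -3.93 and -2.00 in Col-0, and AT1G26240 and AT1G26250 low on both axes.

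Root markers other than hair were set beside these values. Of those at 5 CPM, 6 of 15 in lsm8-1 and 9 of 18 in Col-0 were more than 2-fold lower with NaCl than on GM. In lsm8-1 1 was more than 2-fold higher, and in Col-0 0 were. Between NaCl and GM the summed root markers other than hair were lower too, at 2037 against 4647 CPM in lsm8-1 and 2579 against 6832 CPM in Col-0, while with NaCl they were lower in lsm8-1 than in Col-0, opposite in direction to the summed level of the 8 genes. Of the 16 root markers at 5 CPM with NaCl, 1 was more than 2-fold higher and 0 more than 2-fold lower in lsm8-1 than in Col-0, with a median log2 ratio of 0.05. Most of the sum came from 1 marker, PYK10, named after its values were seen. It held 1607 of the 2037 CPM in lsm8-1 and 2169 of the 2579 CPM in Col-0 with NaCl. On GM it held 3575 of the 4647 CPM in lsm8-1 and 5621 of the 6832 CPM in Col-0. Scaling by the sum is therefore mostly scaling by PYK10. When the libraries were scaled by the summed root markers instead of TMM, 6 genes were still higher in lsm8-1 than in Col-0 with NaCl, and 6 were lower with NaCl than on GM in Col-0. PRP1 and COBL9, at log2 ratios of -1.02 and -1.06 in Col-0, were not counted there because they fell under 5 CPM by this scaling. Under this scaling and under one by the median root marker, added after seeing the data, the NaCl to GM ratio of EXT6, PRP3, LRX1 and COBL9 in lsm8-1 turned positive on the log2 scale, at 0.51 to 0.64 by the sum and 0.04 to 0.17 by the median. PRP1 reached 1.21 and 0.76 under these 2 scalings. The sign in Col-0, and the sign of lsm8-1 against Col-0 with NaCl, was the same for each of the 8 genes under every scaling and pseudocount tried. The part of root content in the result beyond these values was not tested.

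Per length, in the deposited reads per kilobase and 1e6 reads (RPKM), the order of the genes also differed between libraries. In lsm8-1 with NaCl, EXT13 (26.1), PRP3 (23.8) and EXT6 (23.5) led, followed by PRP1 (10.7) and LRX1 (8.50), and AT1G26250 (3.83), COBL9 (2.90) and AT1G26240 (0.266) came last. In lsm8-1 on GM, AT1G26250 led with 62.6 RPKM, ahead of EXT13 with 57.5. In Col-0 with NaCl all 8 lay between 0.123 RPKM (AT1G26240) and 3.19 RPKM (AT1G26250). In Col-0 on GM, AT1G26250 stood at 197 RPKM and the next, EXT13, at 38.0. AT1G26250 thus led 3 of the 4 plate libraries and was well down the order in salt-treated lsm8-1. Neighbours such as PRP3 and EXT6 in salt-treated lsm8-1 are not separated by these data, since no spread between replicates is known.

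In soil the 8 genes were close to absent. Their summed level was 0.863 CPM in lsm8-1 and 1.35 CPM in Col-0 at 4 °C, and 1.48 CPM in lsm8-1 and 2.21 CPM in Col-0 at 20 °C, against 115 to 378 CPM in 3 of the plate libraries and 13.8 CPM in salt-treated Col-0. EXT6 and PRP1 had no read in any soil library, and a count of 0 allows up to 3 reads, or 0.0784 to 0.0895 CPM in the soil libraries. Only AT1G26250 had reads in all 4, with 17 in lsm8-1 and 38 in Col-0 at 4 °C, and 47 in lsm8-1 and 73 in Col-0 at 20 °C. Its lsm8-1 over Col-0 ratio was 0.434 (0.230 to 0.787) at 4 °C and 0.581 (0.394 to 0.850) at 20 °C, under 1 as on GM. These levels, 0.444 to 2.18 CPM, were all under 5 CPM, and such reads cannot be told apart from reads of AT1G26255 on the opposite strand. COBL9 had 8 reads in lsm8-1 at 4 °C and 2 in lsm8-1 at 20 °C, and PRP3 had 2 and 6 in the same libraries and 1 in Col-0 at 20 °C. EXT13 had 12 reads, all in Col-0 at 4 °C, AT1G26240 had 4 and LRX1 2, all in lsm8-1 at 4 °C.

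Related wall genes were read from 12 lists written with earlier results of these data known. In 2 of the lists most genes differed between the genotypes in their response as the 8 did. Among other extensins at 5 CPM, 10 of 12 had a difference in response of 1 or more, with a median of 1.88, and among root hair specific wall and secreted proteins 14 of 15 did, with a median of 1.52. For other extensins, NaCl against GM was more than 2-fold lower in 1 of 12 in lsm8-1 and in 10 of 12 in Col-0, and 8 of 11 were more than 2-fold higher in lsm8-1 than in Col-0 with NaCl. HRGP1, an abundant extensin, stood at 109 CPM in lsm8-1 with NaCl and 117 CPM in lsm8-1 on GM, against 17.8 CPM in Col-0 with NaCl and 93.0 CPM in Col-0 on GM. EXT3, a structural extensin needed in the embryo, stood at 1132 CPM in lsm8-1 with NaCl and 1241 CPM in lsm8-1 on GM, against 823 CPM in Col-0 with NaCl and 1668 CPM in Col-0 on GM, a difference in response of 0.88.

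Of the root hair specific wall and secreted proteins, 3 of 15 were more than 2-fold lower with NaCl than on GM in lsm8-1 and 13 of 15 in Col-0, and 11 of 13 were more than 2-fold higher in lsm8-1 than in Col-0 with NaCl. The expansin EXPA18, which loosens the wall of the growing hair, stood at 8.00 CPM in lsm8-1 with NaCl and 7.68 CPM in lsm8-1 on GM, against 0.805 CPM in Col-0 with NaCl and 6.66 CPM in Col-0 on GM. AT1G12950, a transporter gene of the same list, went the other way and alike in both genotypes, at 37.8 CPM in lsm8-1 and 36.2 CPM in Col-0 with NaCl, against 4.99 CPM in lsm8-1 and 4.19 CPM in Col-0 on GM. EXPA18, HRGP1 and EXT3 were singled out after their values were seen.

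The other groups did not show such a difference in most of their genes at 5 CPM. A difference of 1 or more was seen in 2 of 11 tip growth genes (median 0.13), 2 of 8 other LRX genes (0.28), 0 of 9 enzymes that modify extensins (0.40), 0 of 7 other COBRA-like genes (0.07), 0 of 2 other PRP genes and 0 of 3 root hair transcription factors (0.08). It was seen in 1 of 18 root markers other than hair (0.32) and in 0 of 13 leaf markers (-0.15). PRP2 and PRP4, the other 2 proline-rich proteins, stood at 55.4 and 2000 CPM in lsm8-1 with NaCl and at 109 and 3124 CPM in lsm8-1 on GM, against 62.2 and 1577 CPM in Col-0 with NaCl and 73.4 and 2746 CPM in Col-0 on GM. The factors upstream of hair growth had low levels, and of 9 only 3 reached 5 CPM on plates, namely LRL1, LRL2 and RHD6. LRL1 and LRL2 also had 4.30 to 12.6 CPM in soil, while RHD6, with a difference of 0.85, had no read there. Among those left out of the count, the differences in response were 0.52 for RSL2, 0.41 for RSL4 and 1.00 for LRL3. The pseudocount of 1 CPM shrinks log2 ratios at such low levels. Whether these factors respond as the 8 genes do was therefore not settled here. RSL1, AT2G14760 and AT5G43175 had at most 0.337 CPM on plates and differences of -0.07 to 0.16. RHD6, which starts the hair program, had 5.01 CPM in lsm8-1 with NaCl and 2.65 CPM in lsm8-1 on GM, against 2.39 CPM in Col-0 with NaCl and 2.70 CPM in Col-0 on GM. RSL4, which sets hair length, had 2.60 CPM in lsm8-1 with NaCl and 2.90 CPM in lsm8-1 on GM, against 1.30 CPM in Col-0 with NaCl and 2.31 CPM in Col-0 on GM. RHD6, RSL4 and the other factors of this list except RSL2 were named after their values were seen.

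**Figure D4:**
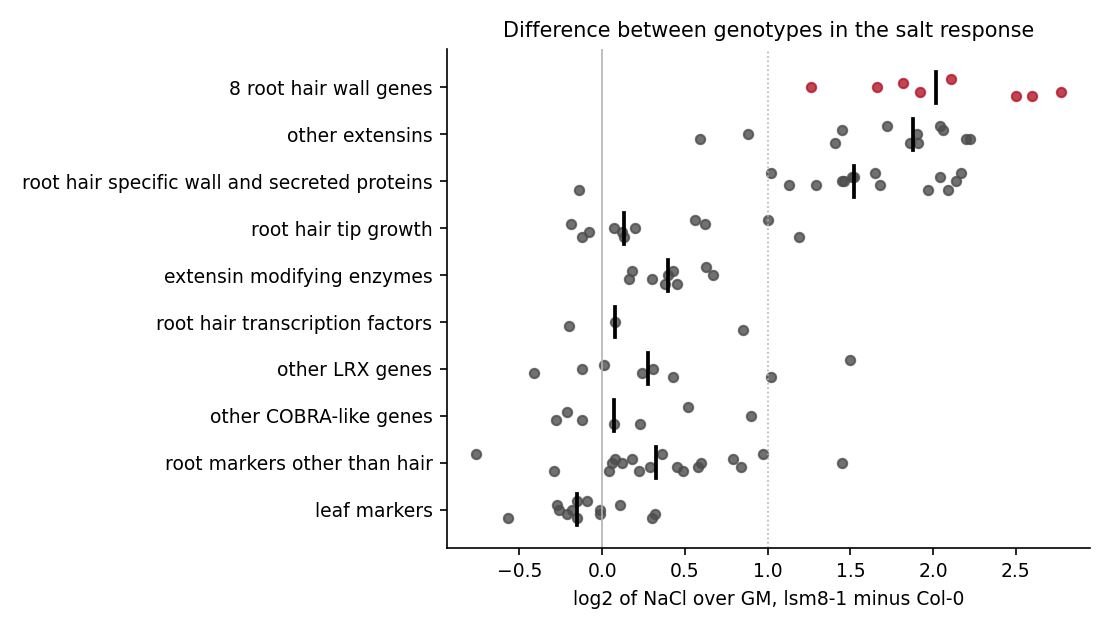
Difference between genotypes in the salt response, the log2 ratio of NaCl to GM (pseudocount 1 CPM) in lsm8-1 minus that in Col-0. There is 1 point per gene at 5 CPM or more on plates, and the median of each group is a bar. The 8 genes (red) run from 1.26 to 2.77, other extensins and root hair specific wall and secreted proteins have medians of 1.88 and 1.52, and leaf markers have a median of -0.15.

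For the lists, the salt effect over both genotypes was also tested with edgeR's quasi-likelihood method in an additive model of genotype and condition over the 8 libraries, with Benjamini-Hochberg adjustment over 20101 genes. In all, 15.2% of genes were higher and 15.1% lower with NaCl. Of 13 other extensins tested, 6 fell and 0 rose, of 19 root hair specific wall and secreted proteins 6 fell and 1 rose, and of 21 root markers other than hair 11 fell and 0 rose. DESeq2, which called 18.3% of genes higher and 15.9% lower with NaCl, called 2 of the 13 other extensins and 3 of the 19 root hair specific wall and secreted proteins lower. The model holds a difference in response between genotypes as spread.

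The extensins EXT10 and EXT12 had salt effects of -2.06 (log2, SE 0.61, adjusted p = 0.0376) and -2.39 (SE 0.69, adjusted p = 0.0347), which DESeq2 did not call (adjusted p of 0.412 and 0.199). AT5G06630, another extensin, had -2.23 (SE 0.70, adjusted p = 0.0459, DESeq2 0.430). AT5G19810, an extensin-like gene at 0.120 to 1.53 CPM on plates, had -2.81 (SE 0.60, adjusted p = 0.0111). Among the secreted proteins, the peroxidase AT4G26010 fell, with -2.30 (SE 0.53, adjusted p = 0.0157). RHS13 and RHS14, root hair specific genes for secreted proteins, had -2.50 and -2.79 with adjusted p of 0.0364 and 0.0493 in edgeR and of 0.401 and 0.475 in DESeq2. AT1G12950 rose by 3.02 (SE 0.29, adjusted p = 5.53e-04). Without the Col-0 library on GM, or without that with NaCl, the edgeR calls of EXT10, EXT12, AT5G06630 and RHS13 were lost. That of EXT10 was lost also without either 20 °C library, that of AT5G06630 without either 4 °C library and that of EXT12 without any 1 of the 4 soil libraries. The call of RHS14 was lost without any 1 of the soil libraries or the Col-0 library with NaCl, and so held in 1 of the 6 fits that tested it. That of AT4G26010 was lost without the Col-0 library on GM, and that of AT5G19810 without either lsm8-1 plate library. Over the fits with a library left out, the adjusted p reached 0.257 for AT5G06630 and 0.00596 for AT1G12950, whose call held in all 8.

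Fewer genes of the remaining groups passed the test. Of 16 tip growth genes, 4 fell, namely the phosphatidylinositol transfer protein COW1, MRH6 and the actin-depolymerizing factors ADF8 and ADF11, with log2 effects of -0.88, -2.80, -1.95 and -1.32 and adjusted p of 0.0293, 0.0168, 0.0235 and 0.0378. Of 11 modifying enzymes, 2 fell, the prolyl hydroxylase P4H2 with -0.76 (adjusted p = 0.0179) and the arabinosyltransferase RRA1 with -1.06 (adjusted p = 0.0272). Of 9 other LRX genes, 2 fell, AT3G22800 (-2.54, adjusted p = 0.0153) and AT1G49490 (-1.16, adjusted p = 0.0298), the last of which also belongs to the pollen list, where it was the 1 gene called of 4. Of 7 other COBRA-like genes 2 rose, IRX6 of the secondary wall by 0.87 (adjusted p = 0.00952) and COBL8 by 0.76 (adjusted p = 0.0190). Of 6 root hair transcription factors RSL2 fell, with -2.64 (SE 0.62, adjusted p = 0.0200). In epidermal patterning genes (9) and other PRP genes (2), edgeR called 0, with 1 and 1 at an unadjusted p under 0.05, where 41.7% of all genes were, and DESeq2 called 1 and 0. The most abundant of the patterning genes on plates, TTG1 and MYB23, had salt effects of -0.24 (adjusted p = 0.329) and -0.37 (adjusted p = 0.355). Adjusted p-values are those of edgeR with Benjamini-Hochberg adjustment. Each of the calls in these groups was lost when the Col-0 library with NaCl was left out. With either GM library left out, RSL2 and MRH6 did not pass the filter on low counts and were not tested. Without the Col-0 library on GM the calls of COW1, ADF8, ADF11, P4H2, RRA1, AT3G22800, IRX6 and COBL8 were lost, without the lsm8-1 library on GM those of COW1, P4H2, AT3G22800, AT1G49490, IRX6 and COBL8, and without the lsm8-1 library with NaCl those of COW1, RRA1, AT1G49490 and COBL8. That of ADF11 was lost also without any 1 of the soil libraries, and its adjusted p reached 0.298.

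Of the root and leaf markers, 11 of 21 and 7 of 13 fell as well. Among root markers other than hair, the largest effects called by edgeR were those of AT1G09750 (-2.70, adjusted p = 5.53e-04), the Casparian strip gene CASP5 (-2.41, adjusted p = 0.0110), the xylem potassium channel SKOR (-2.35, adjusted p = 0.00322) and the ammonium transporter AMT1;3 (-1.78, adjusted p = 0.00814, DESeq2 0.202). The calls of AMT1;3 and CASP5 were lost without the Col-0 library with NaCl, that of AMT1;3 also without the Col-0 library on GM and that of CASP5 without the lsm8-1 library with NaCl, while those of SKOR and AT1G09750 held in all 8 fits with a library left out. CASP5 was not tested with either GM library left out. Among the leaf markers that fell were RBCS2B, RBCS3B, RCA and CA1, genes of carbon fixation, with log2 effects of -3.04, -1.82, -1.85 and -2.15 and adjusted p of 2.41e-04, 0.00225, 8.88e-04 and 0.00212, and 1 leaf marker rose. For the genotype effect over the 4 conditions, 0.706% of genes were higher and 0.338% lower in lsm8-1 in edgeR, and of the 12 lists leaf markers had 1 gene called, the antenna protein gene LHCB3 (1.02, SE 0.14, adjusted p = 0.0305), named here after its value was seen, and the others 0. The call of LHCB3 was lost without any 1 of the 4 °C or plate libraries, with an adjusted p of up to 0.130, and held without either 20 °C library. At an unadjusted p under 0.05 in edgeR, which 18.6% of all genes passed, were 7 of 13 leaf markers, 5 of 13 other extensins, 2 of 19 root hair specific wall and secreted proteins and 0 to 3 genes in each of the other 9 lists. DESeq2, with 3.82% of genes higher and 3.17% lower in lsm8-1, called 1 other extensin and 1 root marker lower and 3 leaf markers higher.

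The genes of the whole series whose plate profile was nearest to that of the 8 were found by the root mean square difference between centred log2(CPM + 1) values over the 4 plate libraries and the median profile of the 8. Among 14391 genes with 5 CPM on plates, the nearest 8 that are not among the 8 themselves were RHS19 (AT5G67400), AT4G08410, AT5G06630, AT5G57625, AT5G04960, AT4G08400, AGP3 (AT4G40090) and AT3G54580, at differences of 0.0777 to 0.253. RHS19, a peroxidase of hairs, stood at 13.6 CPM in lsm8-1 with NaCl and 24.7 CPM in lsm8-1 on GM, against 1.81 CPM in Col-0 with NaCl and 18.4 CPM in Col-0 on GM. AT3G54580, an extensin, was the most abundant, at 244 CPM in lsm8-1 with NaCl and 357 CPM in lsm8-1 on GM, against 56.2 CPM in Col-0 with NaCl and 302 CPM in Col-0 on GM. Of these 8 genes, 6 belong to the lists, 4 to other extensins and 2 to root hair specific wall and secreted proteins. AT5G57625 and AT5G04960, a gene of the pectin methylesterase family, belong to none, and neither had a read in any soil library. The lists hold 141 genes and were written with these data known, and the profile is that of genes chosen on the same libraries. Nothing is therefore read from the overlap. AT5G57625 had 10.5 CPM in lsm8-1 with NaCl and 15.8 CPM in lsm8-1 on GM, against 1.01 CPM in Col-0 with NaCl and 12.0 CPM in Col-0 on GM. The 8 genes' own distances to their median profile ran from 0.186 (PRP3) to 0.503 (COBL9) for 6 of them, and were 1.20 for AT1G26240 and 1.81 for AT1G26250.

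**Figure D5:**
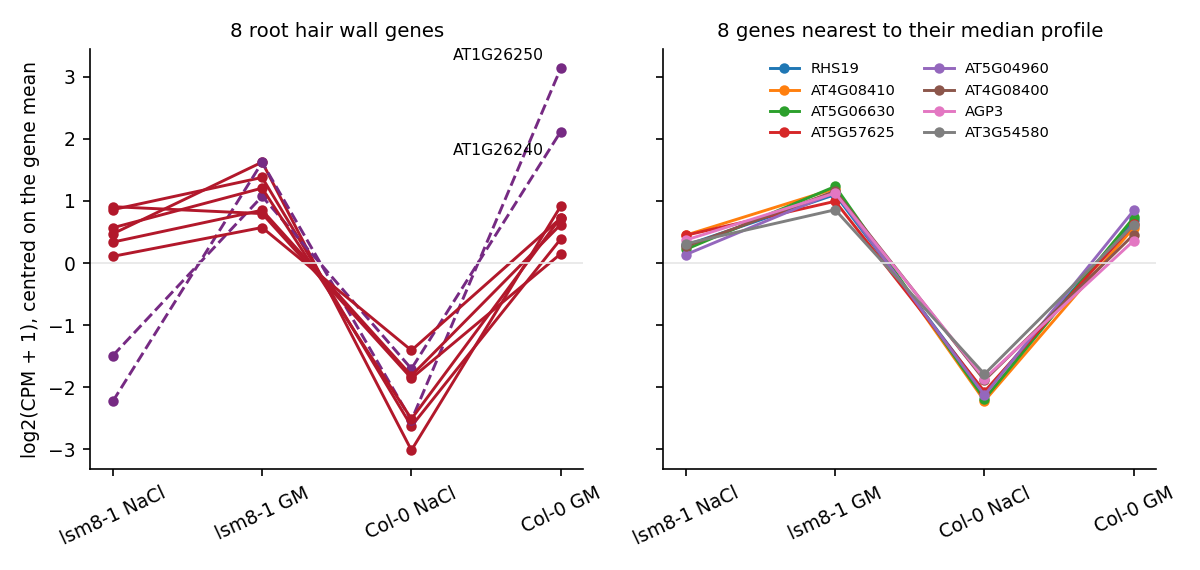
Profiles over the 4 plate libraries as log2(CPM + 1) centred on each gene's mean, for the 8 genes (left) and for the 8 genes nearest to their median profile (right), with 1 line per gene. Most lines have their lowest point in salt-treated Col-0, while the dashed lines of AT1G26240 and AT1G26250 are low in both salt-treated libraries and highest in Col-0 on GM.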

How the data were processed

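Deposited tables hold, per the file headers, whole-number counts of uniquely placed reads for each gene (soil) or transcript model (plates), RPKM (reads per kilobase and 1e6 reads, by the authors) and coverage of the feature in percent. The authors placed reads on TAIR10, per the submitters' processing notes. Which tools placed and counted reads, and whether strand was used, is not given in the sources used here. RPKM equalled count over length and header total. A deposited coverage above 100% occurs in both NaCl tables and was not used for such features.

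Model counts were added up per locus, and each of the 8 genes has 1 model. Features not listed were taken as 0. Counts were scaled by TMM over the 8 libraries (edgeR 4.0.16, R 4.3.3). The additive model used genes reaching 1 CPM in 2 libraries or more, has 3 residual degrees of freedom and counts any difference in response between genotypes as spread, with a threshold of 0.05 on the adjusted p. With 1 library per group its p-values rest on that spread alone.

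The 8 genes, the 12 lists (141 genes, 2 without a read) and the rules were chosen with earlier results of these data known. Named are the 8 genes, in each list at most 4 called genes with the largest effect (or the 2 most abundant on plates where none is called), and the 8 nearest profiles. Alternatives covered scaling, pseudocounts (0.1 and 5 CPM), the first model of each locus alone, DESeq2 1.42.0, no filter, the plates alone and leaving out each library. Leaving out either soil library of a temperature gives nearly the same fit, because the additive model fits the library that remains exactly. The fits with a library left out are therefore fewer separate checks than their number. Protein sequences were not used here.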

Additional observations from a re-analysis of the deposited data

Results flagged for a closer look

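PRP1 was the 1 gene of the 8 whose 2 salt ratios had opposite signs. Its log2 ratio of NaCl to GM was 0.11 in lsm8-1 and -2.00 in Col-0. The difference between the genotypes was not tested, since each group has 1 library, and the counting interval of the ratio in lsm8-1 (1.09, 0.948 to 1.25) includes equality.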

How the results depend on the processing

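Counts past 2-fold use the log2 ratio with a pseudocount of 1 CPM unless stated. By it EXT6 on GM, at a plain ratio of 2.03, stood at 0.99 and was not counted. The number of the 8 genes more than 2-fold higher in lsm8-1 than in Col-0 on GM, 0 as reported, was 1 with TMM over the plates, 3 with scaling by the summed root markers, 1 with scaling by the median root marker (added after seeing the data) and 1 with a pseudocount of 0.1 CPM. The number lower there, 2 as reported, was 0 with the summed root markers, 1 with the median root marker and 1 with a pseudocount of 5 CPM. With the summed root markers 1 gene, PRP1, was higher with NaCl than on GM in lsm8-1, where 0 are reported. Of 64 such counts 56 stayed within 1.5 times. For the genotype effect, reported as 142 genes higher and 68 lower, DESeq2 called 768 and 637, the plates alone gave 72 and 15, and no filter gave 108 lower. Leaving out 1 library at a time gave 29 to 76 higher and 0 to 26 lower, each library moving both counts by over 1.5 times. For the salt effect (3051 higher, 3037 lower) it gave 1764 to 2941 and 1488 to 2937, with the plate libraries behind the low values. Within the lists, the number of other extensins that fell ranged from 1 to 9, of root hair specific wall and secreted proteins from 1 to 14 and of root markers other than hair from 7 to 12. The cause was not tested. No paired analysis was possible because each group has 1 library, so that replicate numbers pair nothing; the additive model sets lsm8-1 against Col-0 within each condition. Depth limits the ratios of AT1G26240 with NaCl (13 reads in lsm8-1 and 6 in Col-0) and those in soil.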
